A study of Mus musculus with 10 samples.

Results

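The 8 genes Klf4, Grhl1, Grhl3, Ovol1, Zfp750, Prdm1, Pou2f3 and Casz1 encode transcription factors that act in the differentiating layers of the epidermis. They were taken by name, with earlier results of these data known. All probe sets annotated to only 1 of them were read. These were 13 of the 45101 probe sets of the array, for 8 of 18193 genes measured. Klf4 and Ovol1 have 2 probe sets each, Casz1 has 4, and the other 5 genes have 1 each. Epidermal keratinocytes in primary culture were taken from Sgpp1+/+ mice (WT, 5 arrays from samples 1 to 5) and Sgpp1-/- mice (KO, 5 arrays from samples 8, 9, 10, 21 and 23). Arrays are named here by sample; the labels also number the arrays themselves, 1 to 5 for WT and 6 to 10 for KO, where KO 21 is array 6 and KO 23 array 7. Sgpp1 encodes sphingosine-1-phosphate phosphatase 1, which removes the phosphate from the signalling lipid sphingosine-1-phosphate. All had been grown for 3 to 4 days at a calcium level of 0.05 mM, with serum at 8%, and total RNA was read on 1-colour Affymetrix mouse expression arrays. Neither the animals' age, strain and allele design nor whether each array is a separate animal or culture is stated, so the tests weigh array-to-array spread only, which may be technical.

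Cultured mouse keratinocytes stay largely basal and proliferating in low calcium and start to stratify when calcium is raised. The change from a dividing basal cell to a cornified cell is driven by a network of transcription factors under the epidermal master regulator p63. Klf4 and the grainyhead-like factors Grhl1 and Grhl3 are needed for a tight skin barrier, Zfp750 (ZNF750 in humans) and Ovol1 switch off progenitor genes and switch on late genes, Prdm1 (Blimp-1) acts in the granular layer, and the POU factor Pou2f3 (Skn-1a) and the zinc finger factor Casz1 are expressed above the basal layer or act in differentiating cells.

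Array values are log2 signals in which 1 unit is a 2-fold change. Array medians lay between 5.02 and 5.17, and correlations between pairs of arrays over all probe sets lay between 0.943 and 0.990, with WT 1 farthest from the rest. The brightest of 3 Sgpp1 probe sets read 6.25, 7.82, 8.24, 8.33 and 7.70 on WT 1 to WT 5 and 8.46, 9.01, 8.69, 8.92 and 9.03 on KO 8, 9, 10, 21 and 23. By this probe set the targeted gene was thus not lower on the arrays labelled KO. Each KO array lay above each WT array, with a difference of 1.15 (SE 0.33) and a limma adjusted p of 0.102. Whether its probe sets lie in the disrupted part is not stated, so directions rest on the labels. Y-linked genes were on in WT 3, WT 5, KO 10 and KO 23, which is 2 arrays of each group. On the 6 other arrays they read 2.08 to 3.84, a range taken here as background. The immediate early gene Fosb was high on 3 arrays, with WT 1 at 9.22, WT 2 at 7.60 and KO 8 at 7.36, and reached no more than 4.31 on the rest. By their mean, 0 of 7 basal and 0 of 7 suprabasal keratinocyte markers lay within background. Of other cells' markers, 5 of 5 B and plasma cell, 5 of 5 hair follicle, 2 of 4 T cell, 2 of 4 endothelial, 3 of 6 myeloid, 1 of 2 sebocyte and 1 of 6 fibroblast markers lay within it. None did among melanocyte (0 of 5) and tuft cell markers (0 of 4). The levels of these 2 lists were unlike, with means of 6.36 to 9.98 for melanocyte and 3.89 to 5.13 for tuft cell markers. The median over all genes was 5.71.

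Promoter windows were looked up because several members were higher in the same arrays. The RefSeq table (build GRCm38.p6) holds 7 windows, each 250 bases before to 50 after a start site, for 5 members, namely Klf4, Grhl1, Grhl3, Prdm1 and Casz1. They were searched on both strands for binding elements of the members other than Casz1, for that of AP-1, and for the TATA box. No element of Casz1 was searched. The first window of Grhl1, Casz1 and Prdm1 is printed because it holds one of these elements, shown in capitals. Sequences are in lower case otherwise and run 5′ to 3′ on the strand of the gene.
Grhl1, GRCm38.p6, chr12:24572037-24572336, plus strand: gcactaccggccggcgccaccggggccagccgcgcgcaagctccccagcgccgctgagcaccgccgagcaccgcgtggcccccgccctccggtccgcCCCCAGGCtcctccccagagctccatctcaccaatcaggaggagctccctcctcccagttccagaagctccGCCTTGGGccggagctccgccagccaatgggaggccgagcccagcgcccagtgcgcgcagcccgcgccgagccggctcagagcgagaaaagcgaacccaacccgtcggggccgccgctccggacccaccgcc
Casz1, GRCm38.p6, chr4:148804142-148804441, plus strand: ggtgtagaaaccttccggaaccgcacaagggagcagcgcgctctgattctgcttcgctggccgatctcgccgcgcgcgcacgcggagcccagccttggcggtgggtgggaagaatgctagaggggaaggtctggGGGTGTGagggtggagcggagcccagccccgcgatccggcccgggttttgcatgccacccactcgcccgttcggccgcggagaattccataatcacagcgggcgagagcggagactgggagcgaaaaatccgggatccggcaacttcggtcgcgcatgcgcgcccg
Prdm1, GRCm38.p6, chr10:44458699-44458998, minus strand: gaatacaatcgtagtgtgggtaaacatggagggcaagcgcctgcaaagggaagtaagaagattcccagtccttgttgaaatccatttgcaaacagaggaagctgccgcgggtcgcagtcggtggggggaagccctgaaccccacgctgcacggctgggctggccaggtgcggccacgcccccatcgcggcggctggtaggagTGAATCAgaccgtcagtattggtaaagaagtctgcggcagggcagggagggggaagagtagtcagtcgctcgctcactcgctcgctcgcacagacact
The Grhl1 window has CCNNAGGC, an element described for ZNF750, as CCCCAGGC 153 bases and as GCCTTGGG 82 bases before the start site. This element is common, in 24.1% of the 32851 windows of the table, and it is also in the second Grhl1 window and the second Casz1 window. The Casz1 window has the KLF element CACACCC on the other strand, GGGTGTG, 116 bases before the start, and 7.95% of all windows have it. The Prdm1 window has the AP-1 element TGANTCA as TGAATCA 48 bases before the start, present in 7.81% of all windows. The grainyhead element AACCGGTT (0.146% of windows), the POU octamer ATGCAAAT (1.74%), the PRDM1 element AGNGAAAG (8.63%), the OVOL element CCGTTA (2.76%) and TATAAA (13.6%) were in 0 of the 7 windows. The Klf4 and Grhl3 windows held none of the 8 elements. The Klf4 and first Grhl1 windows were GC-rich, 74.3% and 75.3% against a median of 52.7% over all windows.

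Keratinocytes labelled KO carried more transcript of 4 of the 8 factors, Klf4, Grhl1, Pou2f3 and Prdm1, by 1.99-fold to 3.16-fold. The other 4, Zfp750, Grhl3, Casz1 and Ovol1, had higher means in KO, by 0.52 to 0.66 log2 units, short of the threshold. None of the 8 was lower. Over all 18193 genes 2.65% were called, 2.3% higher and 0.346% lower in KO (limma, adjusted p under 0.05). The median log2 difference was 0.83 over the 8 members and -0.01 over all genes. On 5 members, the 4 called and Zfp750, each KO array lay above each WT array, and on 0 each lay below. Over all genes the groups were apart in 4.38%, with KO above in 3.36% and below in 1.02%.

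**Figure D1:**
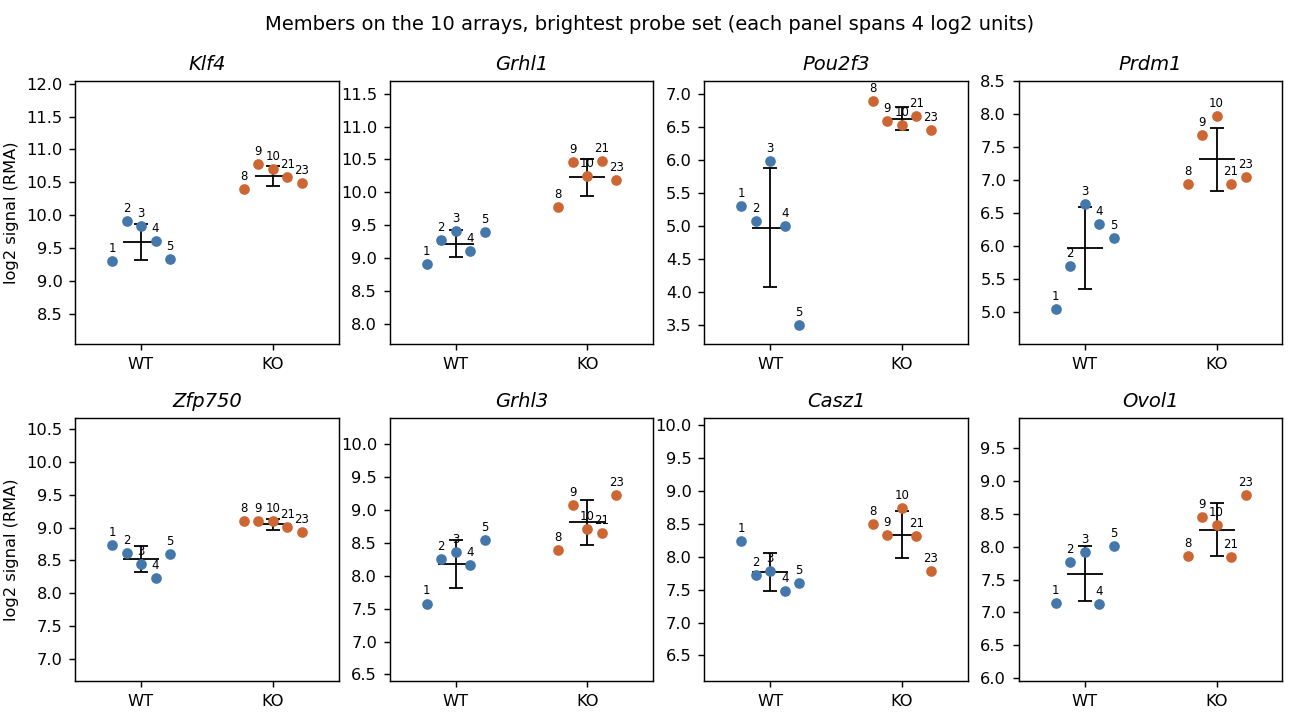
Log2 signal (vertical axis, each panel spanning 4 units) of the brightest probe set of each member on the 5 WT arrays (blue) and 5 KO arrays (orange), with sample numbers at the points and mean ± SD as bars. In the panels of Klf4, Grhl1, Pou2f3, Prdm1 and Zfp750 the groups do not overlap, and in those of Grhl3, Casz1 and Ovol1 they do.

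Klf4 encodes a Krüppel-like zinc finger factor that activates genes of the upper epidermal layers. Its brighter probe set read 9.30, 9.91, 9.83, 9.60 and 9.34 on WT 1 to WT 5 and 10.40, 10.78, 10.70, 10.58 and 10.49 on KO 8, 9, 10, 21 and 23. Every KO array lay above every WT array, and the spread within each group was narrow. The mean went from 9.60 ± 0.28 to 10.59 ± 0.15 (SD, n = 5 each). KO minus WT was 0.99 (SE 0.15), which is 1.99-fold, with a limma adjusted p of 0.00343 over all genes. The other Klf4 probe set went from 9.59 ± 0.22 to 10.28 ± 0.16, a difference of 0.68 (SE 0.15), and its groups did not overlap either. Over all probe sets both passed, with limma adjusted p of 0.00666 and 0.0411. The dimmer set lost its call with quantile normalization (limma adjusted p = 0.0931) and in 8 of the 10 fits without 1 array (0.0641 to 0.136), keeping it without WT 1 or KO 23. It also lost the call with the Y-linked signal (limma adjusted p = 0.0534) or the array number (0.959) as a covariate. Without WT 1, WT 2 and KO 8 together its limma adjusted p was 0.0638. The pair ordered the WT arrays differently: WT 1 was the lowest of the group on the brighter set and the highest, at 9.87, on the other.

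Grhl1 encodes a grainyhead-like factor that keeps desmosomal cadherin genes on. It read 8.91, 9.28, 9.41, 9.11 and 9.39 on WT 1 to WT 5 and 9.78, 10.46, 10.25, 10.47 and 10.19 on KO 8, 9, 10, 21 and 23. The groups were apart, with KO 8 the KO array nearest to WT. The mean went from 9.22 ± 0.21 to 10.23 ± 0.28, a difference of 1.01 (SE 0.16), or 2.01-fold, with a limma adjusted p of 0.00459. Grhl1 and the brighter Klf4 set kept their call over genes in each of the 10 fits that left out 1 array, with differences of 0.93 to 1.12 and 0.92 to 1.07.

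Grhl3, the relative of Grhl1 that is essential for forming the skin barrier and closing wounds, read 7.58, 8.25, 8.37, 8.16 and 8.55 on WT 1 to WT 5 and 8.38, 9.07, 8.71, 8.66 and 9.23 on KO 8, 9, 10, 21 and 23. KO 8 lay within the WT values, and WT 1 was the lowest array. The means were 8.18 ± 0.37 and 8.81 ± 0.34, a difference of 0.63 (SE 0.21, 95% interval 0.18 to 1.08) with a limma adjusted p of 0.17, which did not pass.

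Pou2f3 encodes a POU-domain factor of suprabasal keratinocytes. It read 5.30, 5.08, 5.98, 5.003 and 3.50 on WT 1 to WT 5 and 6.90, 6.59, 6.53, 6.68 and 6.46 on KO 8, 9, 10, 21 and 23. The KO arrays lay close together and all above WT, whereas WT 5 read within the background range. The mean went from 4.97 ± 0.91 to 6.63 ± 0.17, a difference of 1.66 (SE 0.35), or 3.16-fold, the largest of the 8, with a limma adjusted p of 0.0219. Without WT 5 the difference was 1.29 with a limma adjusted p of 0.0047. In that fit it was no longer the largest, since Prdm1 differed by 1.39. The call was lost without WT 4 (adjusted p = 0.0549), KO 8 (0.0518), KO 9 (0.0644), KO 10 (0.0571) or KO 21 (0.0534), at differences of 1.59 to 1.68. Pou2f3 also marks tuft cells, and 4 measured tuft cell markers averaged 4.39 to 4.88 on WT and 4.41 to 4.66 on KO arrays.

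Prdm1 encodes Blimp-1, a repressor that acts in granular keratinocytes and in sebaceous and immune cells. It read 5.04, 5.69, 6.64, 6.34 and 6.12 on WT 1 to WT 5 and 6.95, 7.68, 7.97, 6.94 and 7.05 on KO 8, 9, 10, 21 and 23. The groups did not overlap, and WT 3 came closest to KO. The mean went from 5.96 ± 0.62 to 7.32 ± 0.48, a difference of 1.35 (SE 0.30), or 2.56-fold. Its limma adjusted p was 0.0302 over genes and 0.0517 over all probe sets, so the call depends on which are counted. It was also lost without WT 2 (adjusted p = 0.069), KO 9 (0.105) or KO 10 (0.0889), and without WT 1, WT 2 and KO 8 together the difference was 1.05 (0.092). With the array number as a covariate the difference was -0.021 (SE 0.43, limma adjusted p = 0.993). There 0 of the 8 members and 0 of all 18193 genes were called. Of the other cells that use Prdm1, B and plasma cells had 5 measured markers, whose mean lay between 2.67 and 3.59 on WT and between 2.79 and 3.23 on KO arrays, with 5 of 5 within background. T cell markers, 2 of 4 within background, averaged 2.91 to 3.70 on WT and 3.21 to 3.69 on KO arrays, and sebocyte markers, 1 of 2 within it, 3.28 to 3.76 and 3.69 to 4.004. In each of these lists 0 markers were called.

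Zfp750 encodes a zinc finger factor that acts downstream of p63 and brings about late differentiation. It read 8.73, 8.61, 8.44, 8.23 and 8.60 on WT 1 to WT 5 and 9.10, 9.10, 9.10, 9.003 and 8.92 on KO 8, 9, 10, 21 and 23. The groups did not overlap, with KO arrays within a narrow band. The mean went from 8.52 ± 0.19 to 9.05 ± 0.08, a difference of 0.52 (SE 0.13), or 1.44-fold, and the limma adjusted p over all genes was 0.0536, short of the threshold. By limma it passed in 4 of 20 other settings. It did so without WT 1 (difference 0.57, adjusted p = 0.0274) and with array weights (0.0029). The others were the mean over each gene's probe sets (0.0354) and leaving out genes of a mean under 5 (0.0441). Its difference stayed at 0.52 in both of these. Zfp750 did not pass in the other 16 settings, nor over all probe sets (limma adjusted p = 0.0905).

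Casz1 encodes a zinc finger factor known from heart, nerve and epithelial development. Its brightest probe set read 8.24, 7.72, 7.78, 7.48 and 7.60 on WT 1 to WT 5 and 8.50, 8.33, 8.74, 8.32 and 7.79 on KO 8, 9, 10, 21 and 23. WT 1 and KO 23 crossed, since WT 1 was the highest WT array and KO 23 the lowest KO array. The difference was 0.57 (SE 0.19, 95% interval 0.15 to 0.99) with a limma adjusted p of 0.186. The 3 dimmer probe sets differed by 0.44, 0.24 and 0.31, with overlapping groups, and 0 of the 4 passed. On all 4, WT 1 was the highest WT array.

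Ovol1 encodes a zinc finger repressor that takes keratinocytes out of the cell cycle. Its brighter probe set read 7.14, 7.77, 7.91, 7.13 and 8.00 on WT 1 to WT 5 and 7.86, 8.45, 8.33, 7.85 and 8.79 on KO 8, 9, 10, 21 and 23. KO 8 and KO 21 lay within the WT values. The difference was 0.66 (SE 0.23, 95% interval 0.16 to 1.17) with a limma adjusted p of 0.206, and the other probe set differed by 0.40 (95% interval -0.11 to 0.90). Neither passed.

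Over the 13 probe sets, 4 were called higher and 0 lower in KO when adjusted over all 45037 non-control probe sets, of which 1.27% were called, 1.13% higher and 0.142% lower. These were both of Klf4 and those of Grhl1 and Pou2f3. All 13 had a higher mean in KO, with differences from 0.24 to 1.66, and 6 had groups that did not overlap, against 3.14% of all probe sets, 2.28% with KO above.

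**Figure D2:**
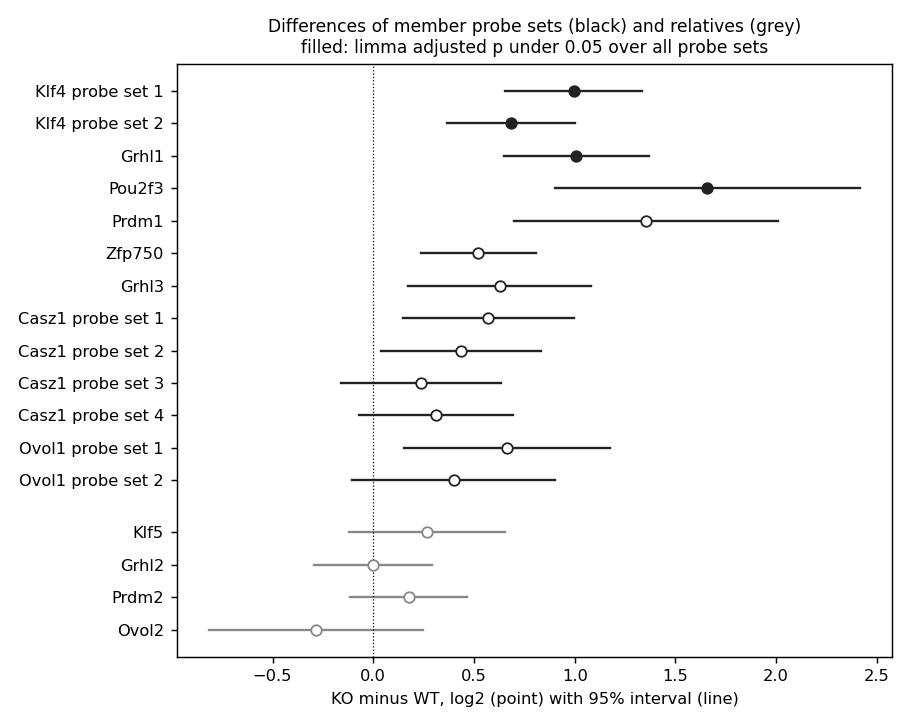
KO minus WT difference on the log2 scale (horizontal axis) with its 95% interval from limma, for the 13 member probe sets (black, brightest first within a gene) and the brightest probe set of 4 family relatives (grey); filled points passed over all probe sets. The 4 filled points are both Klf4 sets, Grhl1 and Pou2f3, and the intervals of the 4 relatives all include 0.

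The arrays did not order the members alike. Averaged over the 8 members, each taken relative to its own 10-array mean, the WT arrays lay between -0.66 (WT 1) and -0.14 (WT 3) and the KO arrays between 0.30 (KO 8) and 0.62 (KO 9). WT 1 was the lowest array for Klf4, Grhl1, Grhl3 and Prdm1 but above the mean for Casz1. KO 8 was the lowest KO array for Klf4, Grhl1 and Grhl3 and the highest for Pou2f3, and KO 23 was the highest for Grhl3 and Ovol1 and the lowest for Casz1, Zfp750 and Pou2f3.

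**Figure D3:**
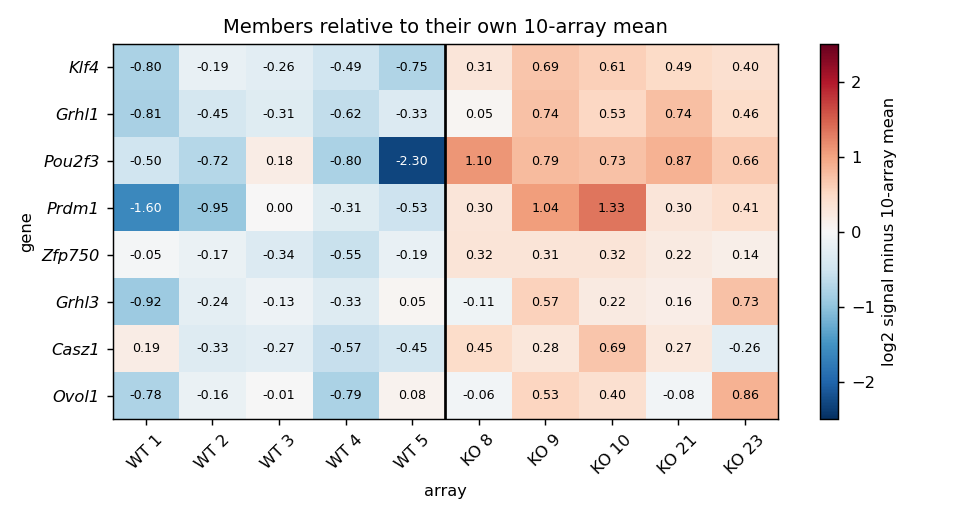
Log2 signal of each member (rows) on each array (columns) minus that member's mean over the 10 arrays, with the value in each cell, red above and blue below the mean. KO 9 and KO 10 are above the mean for all 8 members, and WT 2 and WT 4 are below it for all 8.

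In arrays without Y-linked signal (3 WT, 3 KO) and with it (2 WT, 2 KO) the KO minus WT differences were 0.99 and 1.01 for Klf4, 1.14 and 0.82 for Grhl1, 1.59 and 1.75 for Pou2f3, and 1.5001 and 1.13 for Prdm1. All 8 members had a higher KO mean in both classes. Melanocyte markers varied between arrays: the mean of 5 measured lay between 6.74 and 10.24 on WT and between 8.47 and 10.20 on KO arrays, with WT 1 lowest, and 0 of 5 were called. Fibroblast markers (6) averaged 5.62 to 8.70 on WT and 5.68 to 7.48 on KO arrays, myeloid markers (6) 3.85 to 5.23 and 3.75 to 4.78, and 0 of either list were called. The part of these cells in the members' differences was not tested. Suprabasal keratinocyte markers moved with the members, since 7 of 7 were called higher, with list means of 8.37 to 9.46 on WT and 10.53 to 11.15 on KO arrays, whereas 0 of 7 basal markers were called. More cells of the upper layers and more transcript per cell cannot be told apart in these samples.

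The members were then set against their family relatives, to ask whether a member differed between KO and WT by more than its relative. For each of 6 pairs the log2 value of the relative was subtracted from that of the member on each array, and the groups were compared by exact two-sided permutation of the array labels, adjusted over the 6 pairs. Grhl1 rose more than Grhl2, a grainyhead-like factor of many epithelia. Grhl2 read 8.19, 8.55, 8.02, 8.06 and 8.37 on WT 1 to WT 5 and 8.32, 8.19, 8.20, 8.29 and 8.19 on KO 8, 9, 10, 21 and 23, so that KO lay within the WT range. The difference of differences was 1.01 (SE 0.19), with an exact permutation p of 0.00794, the smallest possible here, and an adjusted p of 0.0238. The 4 Grhl2 probe sets differed by -0.27 to -0.0028 between KO and WT, and 0 were called.

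Prdm1 rose more than Prdm2, a widely expressed histone methyltransferase gene whose brightest probe set differed by 0.18 (limma adjusted p = 0.678). The difference of differences was 1.18 (SE 0.37), with an exact permutation p of 0.00794 and an adjusted p of 0.0238. The 3 Prdm2 probe sets differed by 0.12 to 0.39 between KO and WT, and 0 were called. In these 2 pairs every KO array lay above every WT array. Both passed in each of the 10 repeats without 1 array. Groups that are apart stay apart when 1 array is left out, so these repeats could not have failed and add no evidence. The margins were small. The nearest arrays were KO 8 at 1.46 and WT 3 at 1.39 for Grhl1 minus Grhl2, and KO 23 at -0.30 and WT 3 at -0.32 for Prdm1 minus Prdm2.

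The other 4 pairs did not pass, each with an adjusted p of 0.0635 from the exact permutation test. Klf4 against Klf5, a Krüppel-like factor of proliferating keratinocytes, gave 0.73 (SE 0.27), and Grhl3 against Grhl2 gave 0.63 (SE 0.25). Without KO 8 these became 0.89 and 0.76 and passed, both with an exact permutation adjusted p of 0.0238, and without WT 3 they were 0.83 and 0.73 (0.0476). Ovol1 against Ovol2 gave 0.95 (SE 0.42). Ovol2 averaged 3.69 in WT and 3.41 in KO, both within the background range. Grhl1 against Grhl3 gave 0.38 (SE 0.16), so these 2 members were not shown to differ in their response. Without KO 23 it was 0.50 and passed (exact permutation adjusted p = 0.0317).

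**Figure D4:**
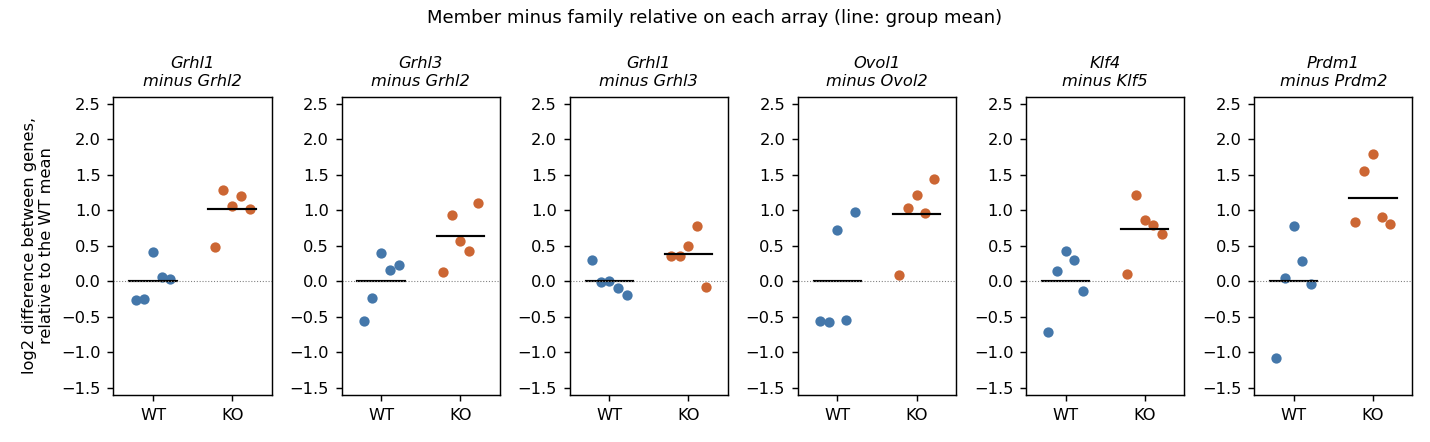
Log2 value of a member minus that of its relative on each array, relative to the WT mean of that pair (vertical axis), for 6 pairs, with WT in blue, KO in orange and group means as lines. The groups are apart for Grhl1 minus Grhl2 and for Prdm1 minus Prdm2, with mean shifts of 1.01 and 1.18, and overlap in the other 4 pairs.

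Among all 29 measured relatives of the Klf, Grhl, Ovol, Pou2f and Prdm families 1 was called, beside 2.65% of all genes. This was Prdm8, a neural PRDM gene, which went from 3.64 ± 0.08 to 4.67 ± 0.51 with a limma adjusted p of 0.0203. Its WT values lie within the background range. The call was lost without WT 4, KO 10 or KO 21, leaving 0 called, and 2 were called without KO 23. The median difference of the relatives was 0.15. Klf6, the brightest not called, differed by 0.44 (SE 0.18, limma adjusted p = 0.313), and its 5 probe sets by 0.42 to 0.96.

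Of 36 other measured transcription factors with roles in keratinocytes 4 rose and 0 fell, beside 2.3% of all genes higher and 0.346% lower, with a median difference of 0.24. They were Cebpa, a C/EBP factor that takes cells out of the cell cycle, Hopx, a homeodomain-only cofactor of terminal differentiation, Gata3, a factor needed for barrier lipids, and Rora, a nuclear receptor. Hopx read 7.35, 9.35, 8.35, 7.50 and 8.46 on WT 1 to WT 5 and 9.73, 10.57, 10.78, 9.85 and 10.09 on KO 8, 9, 10, 21 and 23, a 4.01-fold rise with a limma adjusted p of 0.00702. Cebpa went from 7.87 ± 0.32 to 8.96 ± 0.24, 2.12-fold, and passed in all 10 fits without 1 array, as did Hopx. Gata3 differed by 0.67 (limma adjusted p = 0.0202) and Rora by 1.35 (0.0292). Of the 9 Rora probe sets 5 were called higher over all probe sets, while its brightest had an adjusted p of 0.0506. The count fell to 2 without WT 4, KO 10 or KO 21, where Gata3 and Rora lost their call, and Rora also lost it without WT 5 or KO 9. Trp63, which encodes p63 itself, differed by 0.36 (SE 0.24, limma adjusted p = 0.615), and Fosl2, the brightest not called, by 0.40 (0.274).

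Many genes described as targets or readouts of these factors were also higher in KO. Of 16 measured, 11 rose and 0 fell (limma, over all genes), beside 2.3% and 0.346% of all genes, with a median difference of 1.29. This list, like the others, was chosen with earlier results of these data known. Dsg1a, a desmosomal cadherin gene regulated by Grhl1, rose from 8.60 ± 0.49 to 10.06 ± 0.33, 2.75-fold. The cornified envelope genes Ivl and Lor rose 3.26-fold and 7.72-fold, Flg and the spinous keratin gene Krt10 rose 5.09-fold and 5.12-fold, and Alox12b, encoding a lipoxygenase of the lipid barrier, rose 4.53-fold. These 6 passed in all 10 fits without 1 array. Dsg1a, Ivl, Lor, Flg and Krt10, and Krt1 among the other called targets, also stand among the suprabasal markers above. The counts of both lists thus share these genes. Myc, which Ovol1 and Prdm1 are described to repress, read 11.06 ± 0.22 in WT and 11.24 ± 0.23 in KO, a difference of 0.18 (SE 0.15, limma adjusted p = 0.725).

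Genes whose symbol is a placeholder, such as Rik or Gm names, were left out of a last comparison. Of the rest, those whose centred log2 values differed least from a member's over the 10 arrays, by root mean square, were taken. They are given as a description, since all share the same arrays and the same group difference. For Klf4 they were Me1 (0.07 log2 units), encoding malic enzyme, Tmem154 (0.14) and Ide (0.15), encoding insulin-degrading enzyme, against a median of 0.61 over all genes compared. For Grhl1 they were Gltp (0.15), encoding a glycolipid transfer protein, the kinase gene Tec (0.16) and the envelope gene Sprr1b (0.17), against 0.63. For Pou2f3 they were Rbp2 (0.27), encoding a retinol-binding protein, the keratin gene Krt1 (0.30) and Pla2g2f (0.30), encoding a secreted phospholipase, against 1.05. For Prdm1 they were Fam214a (0.21), Btbd3 (0.23) and Lpin2 (0.26), encoding a phosphatidate phosphatase, against 0.90. For Zfp750 they were Klhl18 (0.11), Wdfy2 (0.11) and Myo18a (0.11), against 0.40.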

How the data were processed

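The authors deposited a log2 value for each probe set on every array, made with RMA (background correction, quantile normalization and summary of the probes), per the submitters' processing notes; the version is not given in the sources used here. RMA compresses differences near background, so folds of dim genes are understated. Values ran from 1.13 to 14.92 and were used as deposited in all 10 columns (0 left out). The number of arrays limits the precision. Of 45101 probe sets, 64 controls were left out, 34945 had 1 gene, 932 several and 9160 none in the platform annotation, and symbols were updated by gene ID for 34741 of them (GRCm38.p6 table). The brightest probe set stood for each of 18193 genes. Differences are KO minus WT from limma 3.58.1 in R 4.3.3 (lmFit, eBayes, two-sided, Benjamini-Hochberg, threshold 0.05), for genes and for 45037 probe sets. SE is the moderated standard error, for pairs of genes that of a difference of 2 means; SD is over 5 arrays. The fit was tested on simulated data. The members and lists were chosen with earlier results of these data known. Beside all members, the text names the relatives compared, up to 6 called genes and the brightest uncalled gene of each list, and the 3 genes most like each member called or without overlap; Trp63 and the markers were added. Some listed genes were not analysed here, and the pair with Pou2f1 was not made.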

Additional observations from a re-analysis of the deposited data

Results flagged for a closer look

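Of 92 groups of 5 arrays tested over 46 probe sets, 3 held an array far from the other 4, by the gap to its neighbour relative to the range of the group, where chance gives about 1 in 20. A dim Casz1 probe set read 6.16 on WT 1, with the next WT array at 5.45. Btbd3 read 7.23 on WT 1, with the next at 7.90. Ivl read 7.99 on WT 4, with the next at 8.81.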

How the results depend on the processing

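No paired analysis was possible because no replicate number occurs in both groups. Equal array medians, quantile normalization on top, an intensity trend, robust variances and the Y-linked signal as a covariate (chosen after seeing the data, as were the repeats of the pair tests) each left 4 of 8 members called, and averaging a gene's probe sets or leaving out genes with a mean under 5 gave 5, with Zfp750 added. With array weights 8 members, 7 member probe sets, 11 other factors (9 higher, 2 lower) and 3 relatives (2 higher, 1 lower) were called. Calls over all 18193 genes went up as well, to 877 higher and 561 lower, from 419 higher and 63 lower without weights. The array number runs from 1 to 5 in WT and from 6 to 10 in KO. With it as a covariate the median SE went from 0.18 to 0.36. In that fit 0 members, 0 member probe sets, 0 other factors, 0 relatives and 0 targets were called. Over all 18193 genes 0 were called either, so the loss of calls was not particular to these lists. There 7 members kept a positive difference, Prdm1 went to -0.021, Myc to -0.010 and Ovol2 to 0.085; the cause was not tested. Without WT 1, WT 2 and KO 8, 2 members (Klf4 and Grhl1), 2 member probe sets, 2 other factors and 0 relatives were called. Averaging the probe sets of a gene gave 2 relatives and 4 of 6 pairs past the threshold, and leaving out genes with a mean under 5 gave 0 relatives, Prdm8 being among those left out. Leaving out 1 array gave 2 to 5 members, 2 to 4 member probe sets, 2 to 5 other factors, 0 to 2 relatives, 9 to 12 targets and 2 to 4 pairs. The count of members was 2 without KO 9 or KO 10, and that of probe sets was 2 in the repeats that lacked WT 2, WT 4, KO 8, KO 9, KO 10 or KO 21. Calls over all genes fell too, from 419 higher and 63 lower with all arrays. They were 264 and 13 without KO 9 and 273 and 17 without KO 10. Grhl2, at -0.0028 in the fit as reported, changed sign to 0.011 with equal array medians, 0.063 with array weights, 0.065 with the array number and 0.064 without WT 1, WT 2 and KO 8. Leaving out 1 array it lay between -0.058 and 0.074, and was positive in the repeats that lacked WT 2, WT 5, KO 9, KO 10 or KO 23. With 5 arrays per group, differences near 0.6 log2 units of Grhl3, Ovol1 and Casz1 had 95% intervals above 0 but did not pass over all genes.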

Other observations

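Some listed genes came close to the threshold or went against the members; they were chosen after their values were seen. Dlx5, a homeobox factor, went from 5.47 ± 0.63 to 6.52 ± 0.32 (n = 5 each) with no overlap between the groups and a limma adjusted p of 0.0682. Ehf, an ETS factor of epithelia, differed by 0.65 (0.0823), while Ets1, an ETS factor of proliferating keratinocytes, differed by -0.82 (0.124). Mecom, a PRDM relative, was lower on each KO array than on each WT array, at means of 3.28 and 2.76, within background (0.152). Of the described targets, the tight junction genes Cldn1 and Cldn4 differed in opposite directions, by 0.75 (0.0896) and -0.84 (0.253), and neither passed. Arhgef19, described as a target of Grhl3, differed by -0.62 (0.426). Each value in parentheses is a limma adjusted p over all genes.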
